A study of Saccharomyces cerevisiae and Schizosaccharomyces pombe with 8 samples.

Results

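The genes pab2, pabp and rpl3002 of the fission yeast Schizosaccharomyces pombe were described at the level of single cleavage positions. They are 3 of 5113 annotated coding genes, chosen by name: pab2 and pabp encode the poly(A)-binding proteins of the nucleus and the cytoplasm, and rpl3002 encodes a ribosomal protein L30. The reads are 3' ends of polyadenylated RNA from 4 libraries, 1 per group. The wild type was grown in rich and in minimal medium, the PAB2 mutant only in rich and the PCF11 mutant only in minimal medium, so each mutant is set against the wild type of its own medium. The mutant alleles, the strain background and the composition of the media are not given in the sources used here. Pcf11 is a subunit of a cleavage factor that takes part in the cleavage of nascent RNA at the poly(A) site. The 4 budding yeast libraries of the series were not used here.

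Poly(A)-binding proteins coat the tail that is added after cleavage. In fission yeast Pab2 binds tails in the nucleus and works with the nuclear exosome, the main RNA-degrading complex there, in the decay and processing of selected transcripts. Pabp is the relative that accompanies mature mRNA in the cytoplasm, where it takes part in translation and mRNA stability. The unspliced rpl3002 transcript is a known target of Pab2-dependent decay, and rpl3001 encodes the other L30 protein. Because 3' end reads carry no information on splicing upstream of the end, spliced and unspliced rpl3002 RNA cleaved at the same position cannot be told apart in these files.

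For each gene, reads on its strand were taken from the annotated start to 1000 nt past the annotated end. pab2 (SPBC16E9.12c) lies on the minus strand of chromosome II, from 1939371 to 1940788, and has 3 introns of 51, 55 and 56 nt. Its window ended 892 nt past the gene end, where the start codon of pub3 begins. pabp (SPAC57A7.04c) lies on the plus strand of chromosome I, from 1542786 to 1545221, with no intron. rpl3002 (SPAC1250.05) lies on the minus strand of chromosome I, from 5095073 to 5095879, with 1 intron of 246 nt at 5095302 to 5095547. That intron was longer than 95.7% of the 5227 introns of coding genes, whose median was 56 nt. The windows held 699 reads at 49 positions for pab2, 27005 at 104 positions for pabp and 5452 at 45 positions for rpl3002, summed over the libraries.

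Sites were built by merging positions up to 24 nt from the position with most reads, and a site was kept when it took 5% or more of the reads in any library. This gave 5 sites for pab2, 2 for pabp and 2 for rpl3002. The sequences of the sites on which the results turn are shown first, read 5′ to 3′ from the RefSeq copy of the genome. Each stretch is 30 bases and ends at the most used position of the site, and the hexamer AATAAA, the canonical poly(A) signal, is in capitals.
pab2 site 723 nt past the stop codon (II:1939371-1939400, minus strand): atttctAATAAAtttcttgattctgtttaa
pab2 site 555 nt past the stop codon (II:1939539-1939568, minus strand): gattAATAAAactaaacacctaccaatgta
pab2 site 519 nt past the stop codon (II:1939575-1939604, minus strand): ccgtatcacatattacagtcatctccttcc
rpl3002 site 69 nt past the stop codon (I:5095142-5095171, minus strand): gataaAATAAAtcggattatttttattgga

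AATAAA starting 10 to 35 nt upstream was present at these sites of pab2 at 723 and 555 nt and of rpl3002 at 69 nt, where it began 23, 25 and 24 nt upstream. It was not in that window at the pab2 sites 351, 519 and 760 nt past the stop codon, at either pabp site or at the rpl3002 site 191 nt past the stop codon. Over the most used site of 4116 coding genes it was present at 18.3%, and on the other strand of the same window at 8.72%. GTA within 30 nt downstream was present at every listed site except those of pab2 at 351 and 519 nt, against 53.7% of the most used sites (37.9% on the other strand). The pabp sites are shown with the 30 bases that follow the most used position, with GTA in capitals.
pabp site 376 nt past the stop codon (I:1545203-1545232, plus strand): tttgataatattgtgtttcatcatGTAgtt
pabp site 239 nt past the stop codon (I:1545066-1545095, plus strand): cgagtcgttttgtttattactGTAaatcag

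The S. pombe libraries held 2697953 to 4486686 reads on the nuclear chromosomes. Levels are given as CPM, the reads of a gene per 1000000 reads of a library after TMM scaling, which assumes that most genes do not differ. Each read stands for 1 RNA end whatever the length of the gene. With 1 library a group, no difference was tested. The 95% intervals are exact Poisson intervals for levels and exact Clopper-Pearson intervals for shares. Those of folds and log2 changes between libraries are exact conditional binomial intervals of the raw counts, with no read added. All cover counting error only. Reads carried no molecular identifiers that the sources used here describe, so copies made by PCR may be counted. Scaling to total nuclear reads instead shifted every log2 change by -0.76 for the PCF11 mutant over wild type, by -0.21 for the PAB2 mutant and by 0.07 for minimal over rich medium.

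**Figure D1:**
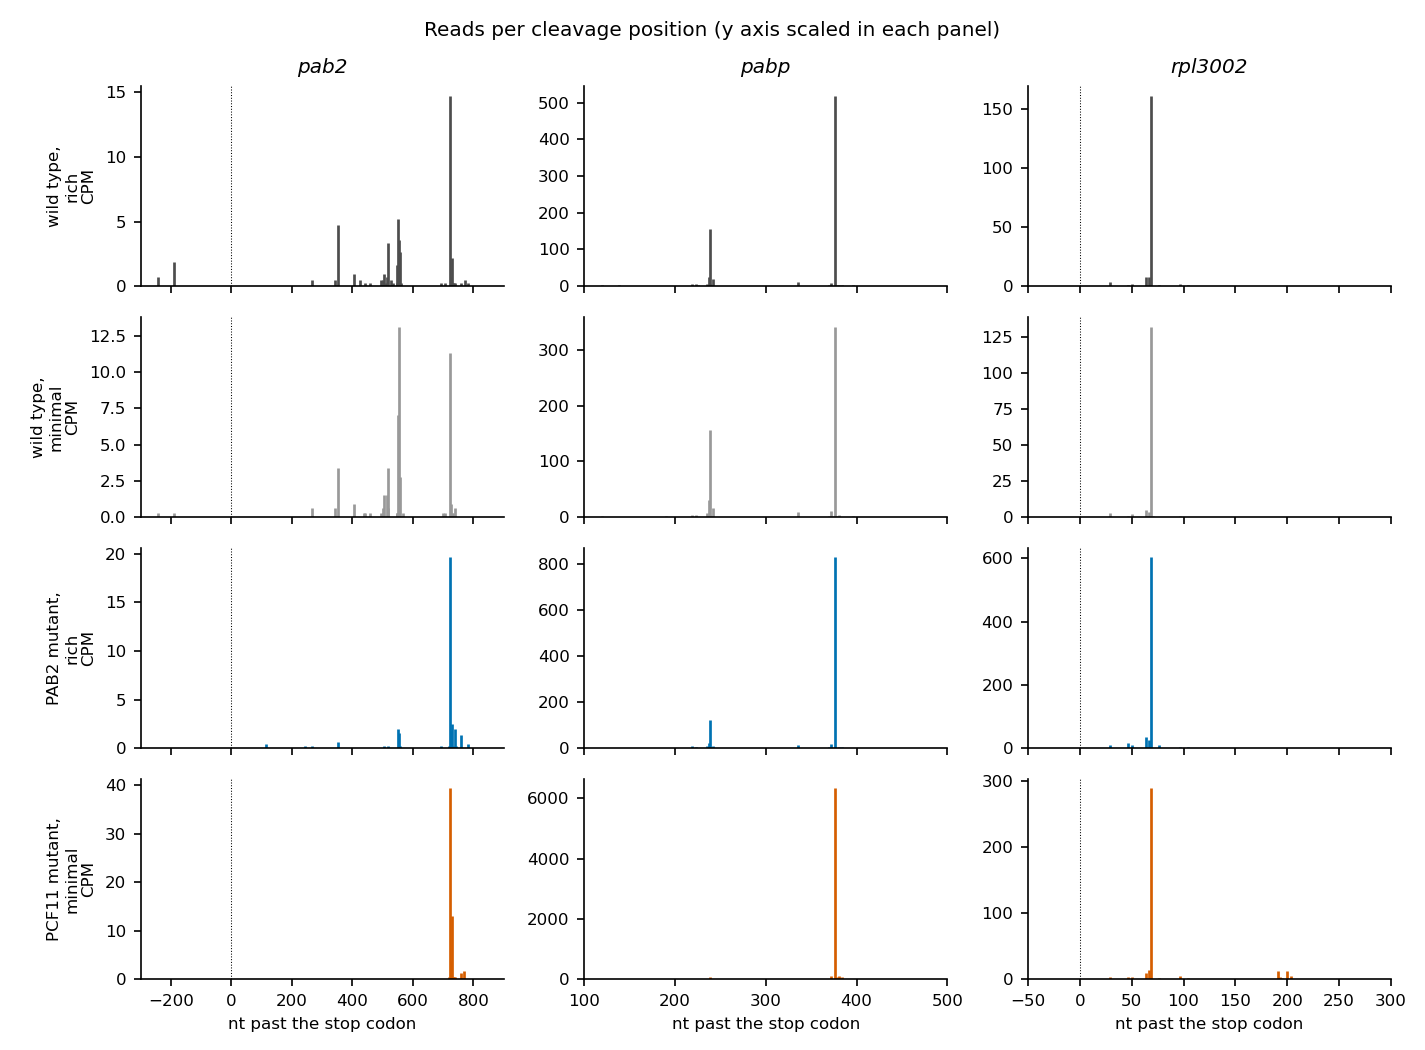
Reads per cleavage position of pab2, pabp and rpl3002 in each library, in CPM (y axis, scaled in each panel), against the distance past the stop codon in nt (x axis, dotted line at the stop codon where it is in range; reads outside the plotted ranges are not drawn). In the PCF11 mutant pab2 has no reads at the sites 351 to 555 nt past the stop codon, which hold 50.9% and 67.6% of its reads in wild type.

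The gene named in the PAB2 mutant label came first. pab2 had 218 reads in the rich-medium wild type, 176 in the minimal-medium wild type, 156 in the PAB2 mutant and 149 in the PCF11 mutant. As levels these were 51.9 CPM (95% interval 45.2 to 59.2), 53.8 (46.1 to 62.3), 34.8 (29.5 to 40.7) and 61.1 CPM (51.6 to 71.7). The PAB2 mutant library was the lowest, 1.49-fold below the rich-medium wild type (interval 1.21 to 1.84), and its interval did not overlap those of the others, which overlapped each other. The order of those neighbours is therefore not settled by the counts. The log2 change of 0.18 in the PCF11 mutant turned to -0.58 when libraries were scaled to total nuclear reads. The overlaps above are those under TMM scaling and did not hold with total nuclear reads. The levels were then 59.8, 65.2, 34.8 and 43.6 CPM in the same order of libraries. The interval of the PCF11 mutant then overlapped that of the PAB2 mutant and lay below those of both wild types.

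The PAB2 mutant still had pab2 reads, and all 156 lay past the stop codon. These ends lie downstream of the coding region, so they do not show whether that region is intact, and they check the label only as far as a lower level does. That check is weak, since 14.8% of 3470 genes had a lower log2 change than pab2 in the same comparison. Inside the coding region, reads were found only at 1940336 and 1940285 in the third exon. There were 11 such reads in the rich-medium wild type, 2 in the minimal-medium wild type, and 0 in either mutant, which allows up to 1.92% and 2.01% of the gene's reads in the PAB2 and the PCF11 mutant. Reads upstream of the stop codon made up 5.05% of pab2 reads in the rich-medium wild type and 0 of 156 in the PAB2 mutant, a difference just past 5 percentage points, which 29.6% of 3442 genes passed downward and 3.57% upward. No member passed 5 points in the PCF11 mutant (21.8% of genes upward, 16.6% downward) or between media (5.41% and 14.4%). The 3 pab2 introns held 0 reads in all 4 libraries.

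pab2 used its farthest major site far more in both mutants. The site 723 nt past the stop codon, which coincides with the annotated gene end at 1939371, took 36.2% of pab2 reads in the rich-medium wild type (interval 29.9% to 43.0%) and 26.1% in minimal medium (19.8% to 33.3%). The PAB2 mutant had 76.9% there (69.5% to 83.3%) and the PCF11 mutant 94.6% (89.7% to 97.7%). The intervals of both mutants lay above those of both wild types. The 3 sites closer to the stop codon, at 351, 519 and 555 nt, together held 111 reads in the rich-medium wild type, 119 in the minimal-medium wild type, 23 in the PAB2 mutant and 0 in the PCF11 mutant.

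Levels at the sites moved in opposite directions, although in the PAB2 mutant the rise at the site at 723 nt was small. The 3 closer sites together were at 26.4 CPM in the rich-medium wild type and 5.13 CPM in the PAB2 mutant, 5.15-fold lower (interval 3.27 to 8.46). They were at 36.4 CPM in the minimal-medium wild type (interval 30.1 to 43.5) and at 0 in the PCF11 mutant (upper limit 1.51 CPM). Taking 3 reads in the mutant as the limit that a count of 0 allows, it lay 29.6-fold or more below the wild-type value of 36.4 CPM. That figure leaves out the counting error of the wild type. The site at 723 nt went from 18.8 to 26.7 CPM in the PAB2 mutant, 1.42-fold higher (interval 1.06 to 1.91). It went from 14.1 to 57.8 CPM in the PCF11 mutant, 4.05-fold higher (2.93 to 5.87), or 2.39-fold with total nuclear reads. In the PAB2 mutant it was 1.23-fold higher with that scaling, and the interval shifted in the same way includes no change. In the PAB2 mutant the total of pab2 was thus lower while its farthest major site was not. Of the 141 reads of the site at 723 nt in the PCF11 mutant, 32 lay at 1939363, against 0 of 46 in the minimal-medium wild type. That position lies before A-rich sequence (6 or more A in the next 10 bases). The fold of the site without such positions is not given here.

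Among the closer sites, the one at 555 nt was the most used in both wild types. It held 63 reads in the rich-medium wild type, 80 in the minimal-medium wild type and 18 in the PAB2 mutant. The site at 519 nt held 26, 26 and 2 reads, and the site at 351 nt held 22, 13 and 3 reads. A minor site at 760 nt, 37 nt past the annotated gene end, held 4, 0, 8 and 7 reads in the order of the rich-medium wild type, the minimal-medium wild type, the PAB2 mutant and the PCF11 mutant. Of these closer sites, those at 519 and 351 nt had neither AATAAA nor GTA in the searched windows, and the site at 555 nt had both.

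**Figure D2:**
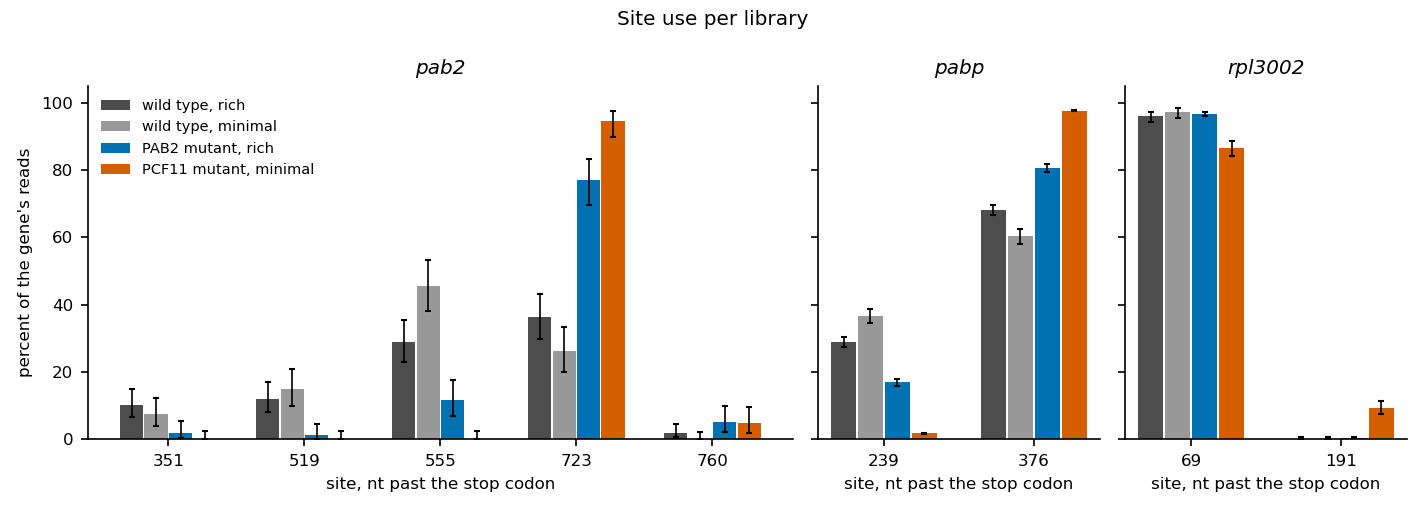
Percent of each gene's reads (y axis) at its cleavage sites, named by their distance past the stop codon in nt (x axis), in each library; error bars are 95% Clopper-Pearson intervals. The farthest major site of pab2 (723 nt) and of pabp (376 nt) has its highest share in the PCF11 mutant, followed by the PAB2 mutant.

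The mean 3' end of pab2, over reads past the stop codon, lay 588.5 nt past it in the rich-medium wild type and 569.4 nt in minimal medium. The PAB2 mutant stood at 683.5 nt and the PCF11 mutant at 729.2 nt. The differences from wild type of the same medium were 95.01 and 159.8 nt. Of the 3 members, pab2 alone lay at least 50 nt farther in the PAB2 mutant, as did 25.7% of 3174 genes, and 0 lay at least 50 nt closer (1.13% of genes). In the PCF11 mutant pab2 and, with 51.6 nt, pabp lay at least 50 nt farther, as did 48.5% of 2654 genes, and 0 lay closer (1.06%). pab2 exceeded 84.3% and 74.5% of genes in these comparisons, so its shift lay in the upper part of a broad distribution, not outside it.

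pabp had the largest level difference of the 3 genes. It had 3367 reads in the rich-medium wild type, 1992 in the minimal-medium wild type, 4853 in the PAB2 mutant and 16793 in the PCF11 mutant. These were 801 CPM (interval 775 to 829), 609 (582 to 636), 1082 (1051 to 1113) and 6881 CPM (6777 to 6986). No intervals overlapped, so the order PCF11 mutant, PAB2 mutant, the rich-medium wild type and the minimal-medium wild type is larger than counting error. That order mixes mutant and medium, since the mutants were grown in different media.

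Against the minimal-medium wild type, pabp was 11.3-fold higher in the PCF11 mutant (interval 10.8 to 11.8), or 6.66-fold with total nuclear reads. It was the 21st most abundant coding gene by reads in that library and the 202nd in the minimal-medium wild type. The change exceeded that of 97.1% of 3058 genes. In that comparison pabp and rpl3002, 2 of the 3 members, were at least 2-fold higher, as were 23.3% of genes. In the PAB2 mutant pabp was 1.35-fold higher than the rich-medium wild type (1.29 to 1.41), and 1.17-fold with total nuclear reads.

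The increase of pabp lay at its far site. The site 376 nt past the stop codon, at 1545202, went from 367 to 6721 CPM in the PCF11 mutant, 18.3-fold higher (interval 17.3 to 19.4). The near site 239 nt past the stop codon, at 1545065, went from 223 to 116 CPM, 1.92-fold lower. With total nuclear reads the far site was 10.8-fold higher and the near site had a log2 change of -1.70, so the opposite directions did not depend on the scaling. In the PAB2 mutant the same pattern was smaller, with the far site 1.60-fold higher (1.52 to 1.68) and the near site at 183 CPM against 231 CPM.

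As shares, the far site took 68.2% of pabp reads in the rich-medium wild type (interval 66.6% to 69.7%) and 60.3% in minimal medium (58.2% to 62.5%). The PAB2 mutant had 80.6% there (79.5% to 81.7%) and the PCF11 mutant 97.7% (97.4% to 97.9%). The order of the libraries by far-site share was thus the same for pabp as for pab2, with the minimal-medium wild type lowest, although the intervals of the wild types overlapped for pab2. The far site was narrow, with 94.3% of its reads at a single position, and the near site had 67.8% at its most used position. Both sites lie in the annotated 3' UTR of 395 nt. Reads upstream of the stop codon of pabp numbered 0 in both wild types, 2 in the PAB2 mutant and 6 in the PCF11 mutant.

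**Figure D3:**
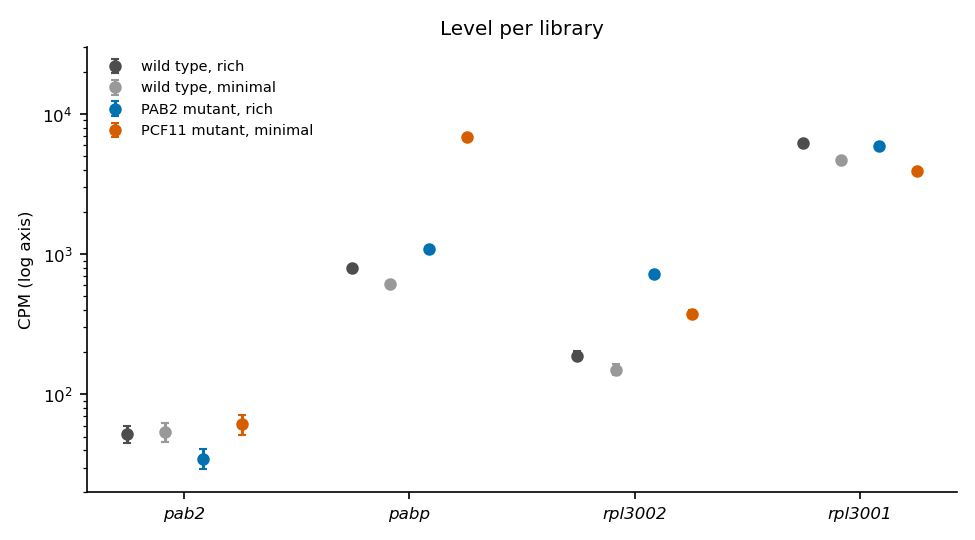
Level of each gene in CPM (y axis, log scale) by gene (x axis) in the 4 libraries; bars are 95% Poisson intervals, which are smaller than the point for the more abundant genes. pabp lies at 6881 CPM in the PCF11 mutant and at 609 to 1082 CPM in the other libraries.

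rpl3002 was the member with the largest difference in the PAB2 mutant. It had 794 reads in the rich-medium wild type, 490 in the minimal-medium wild type, 3261 in the PAB2 mutant and 907 in the PCF11 mutant. The levels were 189 CPM (interval 176 to 203), 149.7 (136.7 to 163.6), 727 (702 to 752) and 372 CPM (348 to 397). The PAB2 mutant lay above the PCF11 mutant, and both lay above both wild types, with no overlap of intervals. Between libraries of different media, mutant and medium cannot be told apart.

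In the PAB2 mutant rpl3002 was 3.84-fold higher than in the rich-medium wild type (interval 3.56 to 4.16), or 3.33-fold with total nuclear reads. It was the only 1 of the 3 members at least 2-fold higher there, as were 5.82% of 3470 genes, and its change exceeded that of 98.7% of them. Set against the minimal-medium wild type, rpl3002 in the PCF11 mutant was 2.48-fold higher (2.22 to 2.78). With total nuclear reads that difference was 1.46-fold, below the 2-fold limit. Its change exceeded that of 82.1% of genes in the PCF11 mutant.

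The paralog rpl3001 did not share this pattern. It had 26147, 15298, 26491 and 9577 reads in the same order of libraries, which is 6223, 4674, 5904 and 3924 CPM. Its log2 change was -0.08 in the PAB2 mutant and -0.25 in the PCF11 mutant (-1.02 with total nuclear reads). The share of rpl3002 among the reads of both L30 genes does not depend on the scaling. It was 2.95% in the rich-medium wild type (interval 2.75% to 3.16%) and 3.10% in minimal medium (2.84% to 3.39%). The PAB2 mutant stood at 11.0% (10.6% to 11.3%) and the PCF11 mutant at 8.65% (8.12% to 9.21%). The wild-type intervals overlapped, and both mutants lay above them.

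Reads of the L30 genes could be told apart at their ends. Over 330 aligned bases the coding sequences were 70.9% identical, and the last 100 nt before the main sites were 56.4% identical over the aligned bases. None of the 76 stretches of 25 nt in the last 100 nt before any site of the 3 members or of rpl3001 was found elsewhere in the nuclear genome.

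Among ribosomal protein genes rpl3002 stood first in the PAB2 mutant. Of 139 genes with symbols beginning rpl, rps or rpp and enough reads, rpl3002 was the only one at least 2-fold higher and 0 were at least 2-fold lower, beside 5.82% and 6.25% of all genes. The median log2 change of these genes was 0.12, against 0.03 over all genes. The next were rpp40, which encodes a subunit of RNase P and meets the symbol rule only, at 1.72-fold, and the ribosomal protein genes rpl3202 at 1.70-fold and rps2602 at 1.66-fold. Introns were present in 77 of the 141 genes of the list. Among 138 such genes in the PCF11 mutant comparison rpl3002 ranked 8. There, 15 genes were at least 2-fold higher and 15 at least 2-fold lower, beside 23.3% and 24.6% of all genes. They were led by rpl1102 at 14.5-fold higher and rps601 at 6.97-fold lower. rpl1102 had 312 reads in the mutant and 28 in the minimal-medium wild type. Among genes with so few wild-type reads, the read minimum over both libraries admits only those higher in the mutant. The direction of the rpl1102 change is therefore not informative by itself.

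**Figure D4:**
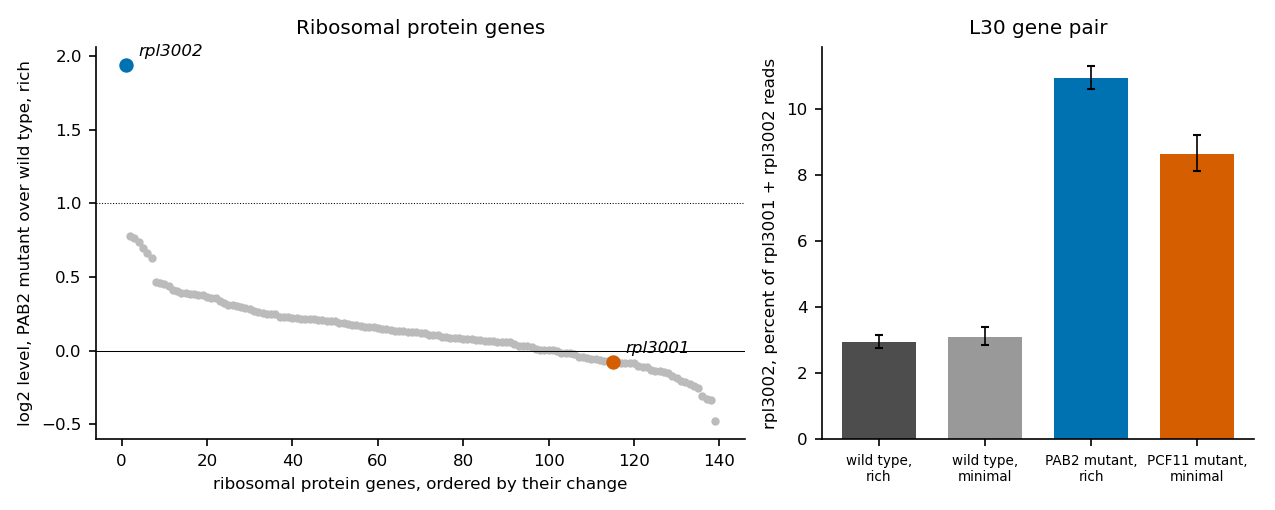
Left, log2 level change in the PAB2 mutant over the rich-medium wild type (y axis) of 139 genes with ribosomal protein symbols, ordered by their change (x axis; dotted line at 2-fold). Right, reads of rpl3002 as a percent of the reads of rpl3001 and rpl3002 in each library, with 95% Clopper-Pearson intervals; rpl3002 reaches 11.0% in the PAB2 mutant and 8.65% in the PCF11 mutant.

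The position of the rpl3002 end did not move with its level in the PAB2 mutant. The site 69 nt past the stop codon, at 5095142, took 96.0% of reads in the rich-medium wild type, 97.3% in the minimal-medium wild type and 96.7% in the PAB2 mutant, with overlapping intervals. The mean end lay at 68.4, 67.9 and 68.6 nt. The share of that site in the PCF11 mutant was 86.4% (interval 84.0% to 88.6%), below the others. A site at 191 nt, 53 nt past the annotated gene end, held 83 reads or 9.15% there (7.35% to 11.2%), against 1 read in the rich-medium wild type, 0 in the minimal-medium wild type and 12 in the PAB2 mutant. The mean end in the PCF11 mutant was 84.7 nt.

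No rpl3002 read ended in the intron in any library. With 3261 reads in the PAB2 mutant, a count of 0 allows up to 0.092% of the gene's reads, and with 490 reads in the minimal-medium wild type up to 0.612%. Among 1723 genes with introns, 7.78% had an intron share at least 1 percentage point higher in the PAB2 mutant and 14.5% at least 1 point lower. These shares were 9.97% and 13.9% in the PCF11 mutant comparison (1464 genes). The intron of rpl3002 is shown by its ends, since the unspliced transcript is the known target, with its first and last 2 bases in capitals.
rpl3002 intron, first 30 bases (I:5095518-5095547, minus strand): GTaagtaactagcttgtaagggttttcctc
rpl3002 intron, last 30 bases (I:5095302-5095331, minus strand): tcgaattttgttttactaactgttttcaAG

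Between media none of the 3 genes differed by 2-fold in level. In wild type, minimal over rich medium, the log2 change was 0.05 for pab2 (interval -0.24 to 0.34), -0.40 for pabp (-0.48 to -0.32) and -0.33 for rpl3002 (-0.50 to -0.17). Over all genes, 2.38% of 3313 were at least 2-fold higher and 1.18% at least 2-fold lower. The interval of pab2 spans 0. The pab2 site at 555 nt took 28.9% of reads in rich medium (interval 23.0% to 35.4%) and 45.5% in minimal medium (37.9% to 53.1%), without overlap. It was picked from the pab2 sites, and the intervals of all the others overlapped between the media. Such overlap does not show that the other sites did not differ. The share of the farthest major site differed by -10.1 points, with an interval of the difference by Newcombe's method of -19.0 to -0.86. By the same method, pab2 reads upstream of the stop codon differed by -3.91 points (-7.76 to -0.26). Those past the gene end differed by -5.20 points (-10.2 to -0.10). The share of sites over all genes without overlap is not given here. The far site of pabp went from 546 to 367 CPM, while its near site stood at 231 and 223 CPM with overlapping intervals. No mean end moved by 50 nt, as 3.87% of 2969 genes did away from the stop codon and 5.29% did towards it. The ribosomal protein genes had a median of -0.39 in that comparison. Each wild-type library is also the control of a mutant, so the comparisons are not independent.

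**Figure D5:**
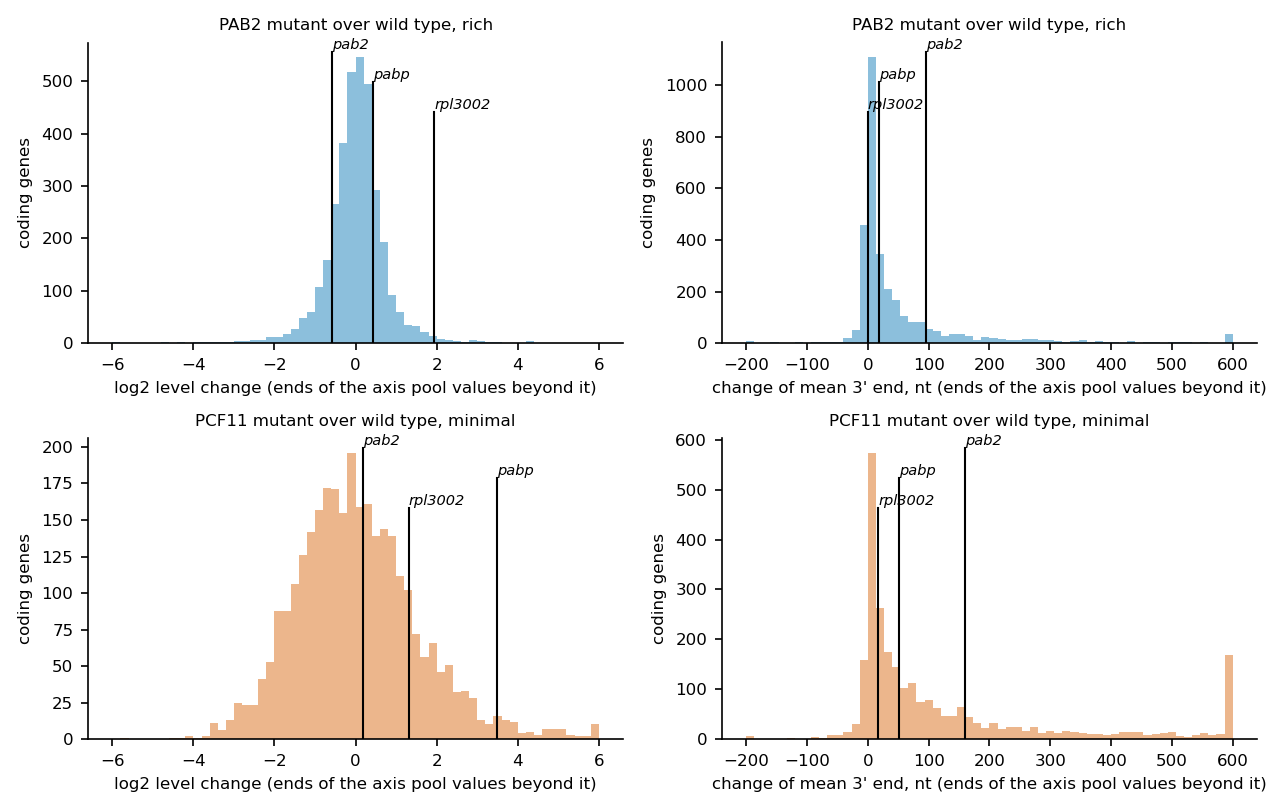
Number of coding genes (y axis) by log2 level change (left) and by change of the mean 3' end in nt (right) for the PAB2 mutant (upper) and PCF11 mutant (lower) over wild type of the same medium, with vertical lines at the 3 genes. rpl3002 lies far right in level in the PAB2 mutant and pabp in the PCF11 mutant; values beyond an axis end are pooled there.

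The genes whose levels ran most like each member over the 4 libraries were taken by the Euclidean distance of mean-centred log2 CPM, among 2336 genes with at least 400 reads. For pab2 they were pof15, an F-box protein gene (distance 0.08), the histone H2A gene hta1 (0.11) and the transcription factor gene prr1 (0.13). For pabp they were mal3, a microtubule plus-end protein gene (0.19), the proteasome subunit gene pre3 (0.22) and the exocyst gene sec8 (0.23). For rpl3002 they were ubp6, which encodes a proteasome-associated deubiquitinase (0.16), pan3, for a subunit of a poly(A) deadenylase (0.34), and tim22, for a mitochondrial import protein (0.38). pre3 had 336, 313, 513 and 3391 CPM in the rich-medium wild type, the minimal-medium wild type, the PAB2 mutant and the PCF11 mutant. ubp6 had 47.1, 39.7, 182.8 and 84.8 CPM.

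Other genes of tail metabolism and nuclear decay were counted by list. Of 24 nuclear exosome and cofactor genes with enough reads in the PAB2 mutant comparison, 0 were at least 2-fold higher and 1 was at least 2-fold lower, with a median log2 change of 0.22. The one was erh1, which encodes a partner of the RNA-binding protein Mmi1, at 68.5 CPM in wild type and 16.3 CPM in the mutant. In the background 5.82% of genes were higher and 6.25% lower. Of 19 genes of the cytoplasmic tail and decay list, pan3 was 2.92-fold higher, while not1, for the scaffold of the Ccr4-Not deadenylase, was 4.67-fold lower and dcp2, for the decapping enzyme, 3.16-fold lower. not1 had 53 reads in the mutant and 235 in wild type, and dcp2 had 25 and 76. Among genes with as few mutant reads as dcp2, the read minimum over both libraries admits only those lower in the mutant. The direction of the dcp2 change is therefore not informative by itself. The median log2 change of the 19 genes was -0.13.

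In the PCF11 mutant comparison, 3 of 20 nuclear exosome and cofactor genes were at least 2-fold higher and 6 lower, beside 23.3% and 24.6% of all genes. rrp6, for the nuclear exosome exonuclease, was 11.98-fold higher (26.9 to 325 CPM). cbc1, for a nuclear cap-binding subunit, was 8.57-fold lower, erh1 6.54-fold lower and mmi1 4.69-fold lower. These rest on few reads in the mutant, 13 for cbc1, 21 for erh1 and 13 for mmi1, against 160, 192 and 87 in the minimal-medium wild type. Among genes with so few mutant reads, the read minimum over both libraries admits only those lower in the mutant. The direction of these changes is therefore not informative by itself. Of 15 genes of the cytoplasmic list, 2 were higher and 6 lower, with tif51, for the translation factor eIF5A, 3.74-fold higher, lsm1 4.20-fold lower, not3 3.72-fold lower and sup35, for a translation release factor, 3.29-fold lower. In wild type, minimal over rich medium, 0 of 23 and 0 of 17 genes of these lists differed by 2-fold in either direction, beside 2.38% of all genes upward and 1.18% downward.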

How the data were processed

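The authors deposited raw read counts for every cleavage position, by chromosome and strand, in files without a header. Per the labels' protocols, 3' ends of poly(A)+ RNA were amplified from total RNA. The aligner was Bowtie2 and the assembly ASM294v2, per the submitters' processing notes. Versions and filters are not given in the sources used here. The RefSeq annotation used here names its build ASM294v3. Over positions with at least 20 reads, the next base in its sequence was A at 0.455% to 0.593% per chromosome, and the base 8 nt downstream at 30.6% to 31.3%, so the files' coordinates were read on it as 1-based. The position itself was A at 87.6% to 89.7%, so a cut just before a genomic A run is placed at its end.

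Reads were assigned by strand to coding genes from the annotated start to 1000 nt past the end, or to the start codon of the next coding or structured gene. Reads outside the nuclear chromosomes (0.0271% to 0.154%) were left out. Scaling used edgeR 4.0.16 (TMM) in R 4.3.3, with DESeq2 1.42.0 size factors as an alternative. Log2 changes used reads plus 1, and genes needed 100 reads over both libraries compared. That number could be reached through 1 library alone. A gene with few reads in 1 library of a pair could therefore pass only when it had more in the other. Distances and shares also needed 20 reads in each library. With 1 library a group no test was made. Other alternatives were the window, the pseudocount, the site joining distance and positions before A-rich sequence. The members, lists and rules were chosen with earlier results of these data known. Genes are named as members, as the paralog, as the 3 most alike, or as the up to 4 listed genes past 2-fold with the largest change. The symbol rule for ribosomal protein genes also takes rpp1, rpp21 and rpp40 of RNase P.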

Additional observations from a re-analysis of the deposited data

Results flagged for a closer look

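Reads on the strand opposite rpl3002, within its annotated bounds, numbered 14 in the PCF11 mutant, or 5.74 CPM (95% Poisson interval 3.14 to 9.63), against 1 read or 0.306 CPM in the minimal-medium wild type (0.0077 to 1.70). They numbered 0 in the rich-medium wild type and 1 in the PAB2 mutant. The level was listed because its interval lay above that of the control library in data that the comparisons did not use. The share of all genes with such a gain in the PCF11 mutant is not given here, so the gain cannot be called particular to rpl3002. The stretch lies within 1000 nt past the end of win1, a gene on that strand. Antisense reads within pab2 and pabp numbered 1 to 10 in every library, with no interval above that of its control. The highest number was that of pabp in the PAB2 mutant, with 10 reads or 2.23 CPM (1.07 to 4.10). The rich-medium wild type had 1 read there or 0.238 CPM (0.006 to 1.33), so these intervals overlapped narrowly.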

How the results depend on the processing

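No paired analysis was possible because each S. pombe group has 1 library and no test was made. Of 216 values recomputed under an alternative, 189 stayed within their 95% counting interval (Newcombe's for differences of shares) or within 1.5 times for counts of genes, 27 moved and 0 reversed a direction that counting error had settled. Some of the 189 had no room to move. The 33 with windows from the start codon stayed, as the members had no reads upstream of it, and their intron shares were 0 throughout. Of the 15 values with total nuclear reads, 8 moved. The cause of each move was not tested. With total nuclear reads as library size, the log2 change in the PAB2 mutant was 0.23 for pabp and 1.74 for rpl3002, and in the PCF11 mutant -0.58 for pab2, 2.74 for pabp and 0.55 for rpl3002. With DESeq2 size factors pabp was at 3.604 in the PCF11 mutant. Without positions before A-rich sequence, pab2 in the PCF11 mutant was at -0.15, and its reads past the gene end differed by 13.7 points in place of 30.9. With all reads of the window, the mean end of pab2 moved by 135.1 nt in the PAB2 mutant and by 11.998 nt between media. With sites joined within 12 nt, the share of the main rpl3002 site differed by -1.11 points in the PAB2 mutant, in place of 0.72.

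The background counts moved with the read minimum, the scaling and the window. At 20 reads, genes at least 2-fold higher and lower numbered 331 and 431 in the PAB2 mutant (202 and 217 at 100 reads) and 149 and 101 between media (79 and 39), and 1181 were lower in the PCF11 mutant (753). Genes with ends at least 50 nt farther and closer numbered 1280 and 113 in the PAB2 mutant (815 and 36), 2239 and 120 in the PCF11 mutant (1288 and 28) and 279 and 358 between media (115 and 157). With total nuclear reads, 326 were lower in the PAB2 mutant, and 380 higher and 1376 lower in the PCF11 mutant (712 and 753). With windows to 500 nt, 6 and 14 had closer ends in the PAB2 and PCF11 mutant (36 and 28). Depth limits pab2 most, with 149 to 218 reads a library.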

Other observations

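Within its farthest major site, pab2 ends were spread over 12 positions. The most used, 1939371, held 62, 37, 88 and 96 reads in the rich-medium wild type, the minimal-medium wild type, the PAB2 mutant and the PCF11 mutant. The position 8 nt farther, 1939363, held 9, 0, 11 and 32 reads. It lies before A-rich sequence (6 or more A in the next 10 bases), and leaving out such positions took the difference in reads past the gene end between the PCF11 mutant and its wild type from 30.9 to 13.7 percentage points. The ratio of pabp to pab2 reads was 15.4 (95% interval 13.5 to 17.8), 11.3 (9.70 to 13.3), 31.1 (26.5 to 36.7) and 112.7 (95.9 to 133.3) in the same libraries, and no scaling enters it.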
